A study of Mus musculus with 2 samples.

Results

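The cytosolic ribosomal proteins and their close paralogues were examined in RNA sequencing of the mouse B lymphoma line CH12F3. The members were the protein-coding mouse genes whose symbol begins with Rpl, Rps or Rplp followed by a digit, together with Rpsa, leaving out the Rps6k kinases and symbols of pseudogenes. The rule found 86 of 51840 genes without using any measured value. Of these, 31 encode canonical proteins of the small subunit and 46 of the large subunit. The other 9 were the paralogues Rpl3l, Rpl7l1, Rpl10l, Rpl22l1, Rpl36al, Rpl39l, Rps27l and Rps27rt, and Rps19bp1, which encodes a protein that binds S19 and is not itself a ribosomal protein.

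RNA was measured in 2 libraries, 1 of CH12F3 and 1 of the same line with the label Lig4-/-, the notation for loss of both alleles of the gene for DNA ligase IV of nonhomologous end joining. Both cultures were grown in RPMI 1640 with 10% fetal bovine serum and carried no other stated treatment, and both libraries were made with a TruSeq RNA kit from 5 ug of Trizol RNA. The labels do not say how the line labelled Lig4-/- was made or whether it is 1 clone. With 1 library per line there were no replicates, so the values below carry no error, no test was possible and every difference describes these 2 libraries.

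A ribosome carries a single copy of most ribosomal proteins, and their genes are among the most strongly transcribed in dividing cells. Their mRNAs commonly begin with a C followed by a run of pyrimidines, the 5′ terminal oligopyrimidine (TOP) tract, through which the kinase mTOR controls their translation. Processed copies of these mRNAs are scattered through mammalian genomes, so reads from one gene can match several places.

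The deposited values were FPKM, fragment numbers scaled to transcript length and library size, which summed to 1020856 in the CH12F3 library against 962435 in the one labelled Lig4-/-. Depth was not given in the sources used here. All 8 B cell markers listed were expressed, summing to 8039 and 11816 FPKM in that order, while 4 epithelial markers summed to 0.64 and 0.33 and 3 fibroblast markers to 0.31 and 0.14 FPKM. Low levels were also listed for 3 erythroid markers (30.8 and 23.6 FPKM, nearly all Hba-a1), 4 T cell markers (8.32 and 3.05, mostly Cd4) and 4 macrophage markers (4.27 and 8.28), and their part in the results was not tested. Lig4 was at 0.13 FPKM in the CH12F3 library against 0.64 in the other, so it was not lower in the library labelled Lig4-/-, and each direction below rests on that label. In a bulk library, the abundance of a transcript per cell and the share of cells that hold it cannot be told apart.

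Ribosomal protein genes were among the most abundant transcripts of both libraries. The 86 genes summed to 255167 FPKM in the CH12F3 library, 25.0% of all FPKM, and to 218618.5 FPKM in the library labelled Lig4-/-, 22.7%. The ratio of these sums was 0.857. They held 26 of the 50 highest places in the CH12F3 library against 29 of 50 in the other, and 52 and 54 of the 100 highest. Levels above 1000 FPKM were reached by 68 members in the CH12F3 library and by 71 in the library labelled Lig4-/-.

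The order of the members was much the same in both libraries. Rpl13a, a large subunit protein, led at 18559 FPKM in the CH12F3 library against 9358 in the one labelled Lig4-/-. Rplp1, an acidic protein of the stalk that recruits elongation factors, followed at 12012 FPKM in the CH12F3 library against 8300.4 in the other. Rps2, near the entry channel for mRNA, was at 8275 and 5152 FPKM. These 3 genes were lower in the library labelled Lig4-/-, although they were among the 5 highest members of each library. Rps15, in the head of the small subunit, was at 7446 FPKM in the CH12F3 library against 3969.5 in the other, where it was no longer among the 5 highest members. Rpl41, the smallest ribosomal protein, was at 7386 and 6842 FPKM. Rps27, a zinc-finger protein of the small subunit, was at 3141 FPKM in the CH12F3 library against 6524 in the one labelled Lig4-/-, where it was among the 5 highest members. Over the 77 canonical genes, which share the 2 libraries and are not replicates, Spearman's rho between their FPKM in the libraries was 0.90 and Pearson's r of log2(FPKM + 1) was 0.95.

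**Figure D1:**
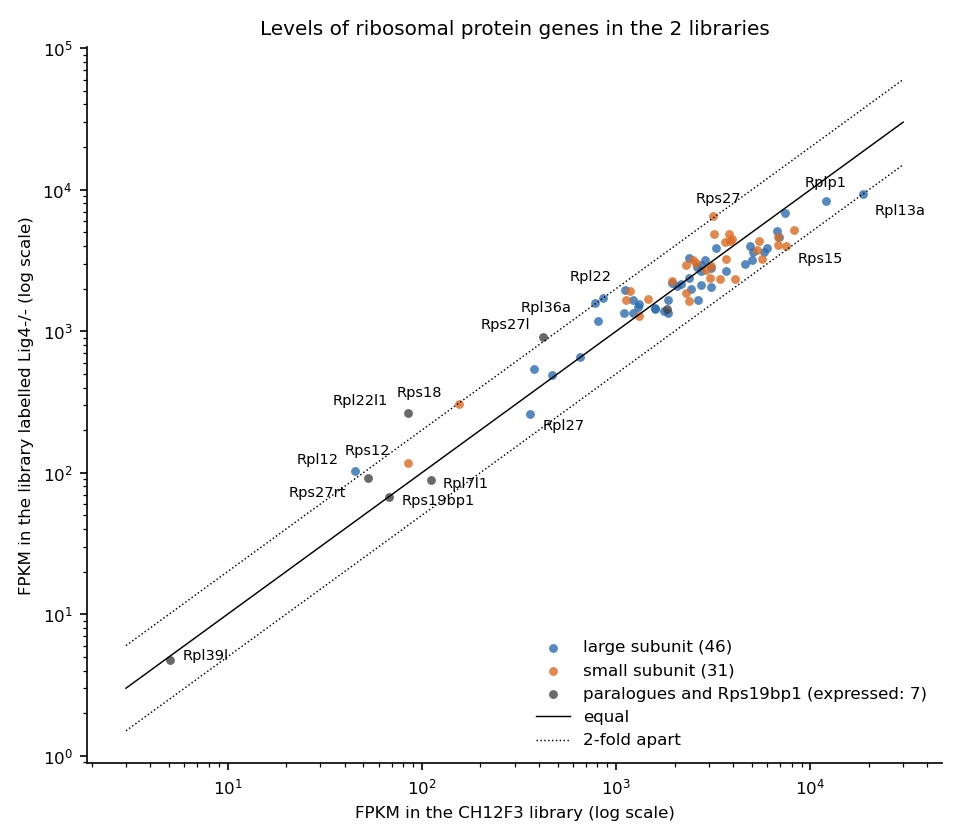
FPKM of the 84 expressed ribosomal protein genes in the library of CH12F3 (x axis, log scale) and the one labelled Lig4-/- (y axis, log scale), 1 point per gene coloured by subunit, with lines at equal values and at 2-fold apart. Rpl13a and Rplp1 lie at the upper end, and Rpl12, Rps12, Rps18 and Rpl27 are the lowest canonical genes of both libraries.

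Of the 86 members, 84 were expressed, that is, averaged 1 FPKM or more over the pair of libraries. Rpl10l was listed at 0 in both libraries, and Rpl3l was at 0.16 and 0.38 FPKM. No member was listed at 0 in 1 library only. The expressed members had a median log2 ratio of -0.04, where 1 FPKM was added to both values and the library labelled Lig4-/- was divided by the CH12F3 library. Their quartiles were -0.46 and 0.26, against -0.34 and 0.86 for all 11437 expressed genes, whose median was 0.17. The median of the members lay at 0.05 when both libraries were scaled to an equal FPKM total and at -0.21 when the median of all expressed genes was set to 0, so its side of 0 depended on the scaling. Below 0 were 46 of the 84 members, beside 41.7% of all expressed genes, and 54 of the 84 lay below the overall median.

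The spread among the members was narrow. Their log2 ratios had a standard deviation over genes of 0.54, against 0.92 for all expressed genes and 0.82 for the 1160 other genes with a mean of at least 100 FPKM. In the library labelled Lig4-/-, 6 of the 84 members were higher by 2-fold or more, a smaller share than the 21.0% of all expressed genes and close to the 7.16% of those 1160 abundant genes. At least 2-fold lower was no member, beside 4.09% of all expressed genes and 7.33% of the abundant ones. With the overall median set to 0, the counts were 2 higher, Rpl12 and Rpl22l1, and 2 lower, Rpl13a and Rps15. The abundant genes outside the set had a median log2 ratio of -0.25, lower than that of the members. These contrasts between the members and other genes were not tested.

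**Figure D2:**
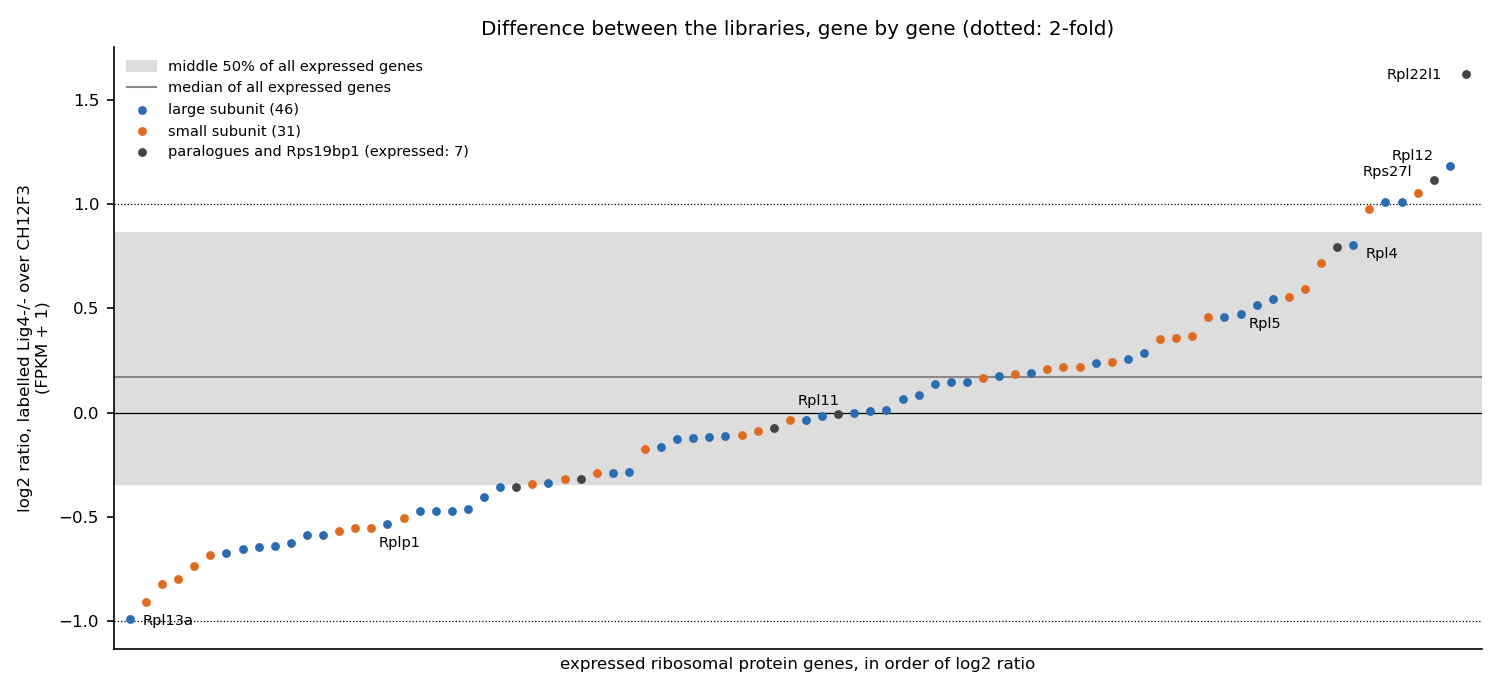
Log2 ratio on the FPKM + 1 scale (y axis) of each of the 84 expressed members in rising order (x axis), coloured by subunit, with the median and the middle 50% of all expressed genes as a line and a grey band and dotted lines at 2-fold. The members run from Rpl13a at -0.99 to Rpl22l1 at 1.62, and 6 lie above the upper dotted line.

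The 6 genes past 2-fold came from both subunits and included 2 paralogues. Rpl22l1, the paralogue of the RNA-binding large subunit protein Rpl22, was at 84.95 FPKM in the CH12F3 library against 263 in the one labelled Lig4-/- (log2 ratio 1.62). Rpl22 itself, which mouse T cells need for their development, was at 852 and 1718 FPKM (1.01). Both members of this pair were higher in the library labelled Lig4-/-. Rps27l, a paralogue known as a target of p53, was at 419 and 908 FPKM (1.12), and its partner Rps27 had a log2 ratio of 1.05 from the levels given above. On the deposited scale the pair thus stood about equally far apart between the libraries. After the adjustment for GC content described below, Rps27 was at 1.28 and Rps27l at 0.05. Rpl12, at the base of the stalk, was at 45.1 and 104 FPKM (1.18), and Rpl36a, a zinc-binding large subunit protein, at 781 and 1573 FPKM (1.01). Rpl12 was the lowest of all canonical genes in both libraries.

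These 6 genes lie on 5 chromosomes (GENCODE M21, GRCm38). Rpl22l1 spans chr3:28805436-28807424 on the plus strand, Rps27 spans chr3:90212522-90213651 on the minus strand, and Rps27l spans chr9:66946086-66949516 on the plus strand. Rpl12 at chr2:32961559-32965345, Rpl22 at chr4:152325742-152334071 and Rpl36a at chrX:134585654-134588062 are all on the plus strand. The higher genes were thus not neighbours of each other.

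Several members lay close to the 2-fold line. Rpl22 and Rpl36a were just beyond it, and Rps18, which sits in the head of the small subunit, just short of it at 155 and 307 FPKM (0.98). Rpl4, whose protein lines the peptide exit tunnel, was at 1114 and 1943 FPKM (0.80), the lowest of the 8 highest log2 ratios. On the other side, Rpl13a (-0.99) was the nearest to 2-fold lower.

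The lowest log2 ratios belonged to canonical proteins with high levels. Rps15 had a log2 ratio of -0.91. Rps10, a small subunit protein that Zfp598 ubiquitinates on collided ribosomes, was at 5644 FPKM in the CH12F3 library against 3248 in the one labelled Lig4-/- (-0.80), and Rps3, at the mRNA entry channel, at 6829.6 and 4098 FPKM (-0.74). These 3 were higher in the CH12F3 library, and none reached 2-fold. Rps2 (-0.68), Rpl10a (2650.0 and 1664 FPKM, -0.67) of the L1 stalk, and Rpl18 (5757 and 3657 FPKM, -0.65) were also among the 8 lowest. Nearest the median of the set were Rps20, at 1306 and 1273 FPKM, and Rpl11, at 2725 and 2659.7 FPKM, each with a log2 ratio of -0.04.

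Both subunits gave similar medians. The 31 small subunit genes had a median log2 ratio of -0.04, with 15 above 0 and 16 below, and a ratio of summed FPKM of 0.901. The 46 large subunit genes had a median of -0.07, with 20 above 0 and 26 below, and a ratio of sums of 0.820. With equal FPKM totals both medians moved above 0, to 0.05 and 0.01, whereas both ratios of sums lay below 1 there and with the overall median set to 0. After the adjustment for GC content described below, the medians were -0.20 and -0.18. The difference between the subunits was not tested.

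The 33 proteins with counterparts in bacteria and archaea lay somewhat lower than the 44 that eukaryotes added or share with archaea alone. The universal group had a median log2 ratio of -0.18, with 13 above 0 and 20 below, and summed to 115137 and 86696 FPKM, a ratio of 0.753. The others had a median of 0.00, with 22 on each side of 0, and summed to 137457 and 129066 FPKM, a ratio of 0.939. The universal group holds Rpl13a, Rps2 and Rps15, which were among the highest members of the CH12F3 library. With the overall median set to 0 the medians were -0.35 and -0.17, after GC adjustment -0.45 and -0.08, and the difference between the groups was not tested.

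The 18 genes that are mutated in Diamond-Blackfan anaemia in people had a median of 0.15, 11 above 0 and 7 below, and a ratio of summed FPKM of 1.05. That side of 0 depended on the scaling, since the median was -0.02 and the ratio 0.932 with the overall median set to 0, and after GC adjustment the median was -0.16. Their range ran from Rps10 (-0.80) to Rps27 (1.05).

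The stalk proteins Rplp0, Rplp1 and Rplp2 were all lower in the library labelled Lig4-/-. Rplp0, the scaffold of the stalk, was at 5999 FPKM in the CH12F3 library against 3854 in the other (log2 ratio -0.64). Rplp1 had a log2 ratio of -0.53, and Rplp2, the partner of Rplp1, was at 4869 and 3993 FPKM (-0.29). After GC adjustment Rplp0 was at -0.55, Rplp1 at -0.19 and Rplp2 at -0.05, so Rplp2 was then almost equal. Rpl12, which anchors near them, was the exception noted above. Rpl5 and Rpl11, which with 5S rRNA bind the p53 ligase Mdm2, differed from each other, Rpl5 being at 377 and 539 FPKM (0.52) and Rpl11 almost equal. Rpl5 was at 0.28 when pooled with its copies and at -0.60 after GC adjustment, so its direction depended on the processing, and Rpl11 was at -0.04 and 0.06.

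Other members, chosen for their known roles, lay between these extremes. Rps6, the phosphorylated target of S6 kinase, was at 2302 and 2939 FPKM (log2 ratio 0.35), and Rps27a, which is made as a fusion with ubiquitin, at 2477 and 3172 FPKM (0.36). Rpl38, which in mouse embryos is needed for the translation of Hox mRNAs, was at 3248 and 3878 FPKM (0.26). These 3 were higher in the library labelled Lig4-/-. Rps19, the gene most often mutated in Diamond-Blackfan anaemia, was at 5431 and 4355 FPKM (-0.32), and Rps14, whose loss in people marks the 5q- syndrome, at 6818 and 4650.1 FPKM (-0.55). Rpl3, which reaches the peptidyl transferase centre, was at 3074 and 2049 FPKM (-0.59), and Rpl10, which is needed for the subunits to join, at 1852 and 1336 FPKM (-0.47). These 4 were lower in that library, each by less than 2-fold.

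The first bases of some members are shown because the TOP tract is the feature most of these mRNAs share. Each line gives 25 bases before and 25 from the annotated start in RefSeq on GRCm38.p6, 5′ to 3′ on the strand of the gene, with the longest pyrimidine run that begins with C within 10 bases before to 15 after the start in capitals. The windows are chr3:90213624-90213673 (Rps27, minus strand), chr3:28805483-28805532 (Rpl22l1, plus), chr2:32961687-32961736 (Rpl12, plus), chr7:45128721-45128770 (Rpl13a, minus), chr17:27635220-27635269 (Rps10, minus), chr10:80292406-80292455 (Rps15, plus) and chr15:80264282-80264331 (Rps19bp1, minus).
Rps27: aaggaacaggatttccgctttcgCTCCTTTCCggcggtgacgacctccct
Rpl22l1: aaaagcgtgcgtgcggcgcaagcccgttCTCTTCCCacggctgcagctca
Rpl12: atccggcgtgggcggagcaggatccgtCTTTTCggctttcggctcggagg
Rpl13a: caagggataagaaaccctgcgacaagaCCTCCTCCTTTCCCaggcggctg
Rps10: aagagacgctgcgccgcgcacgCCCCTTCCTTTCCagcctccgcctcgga
Rps15: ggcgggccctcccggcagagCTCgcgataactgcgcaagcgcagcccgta
Rps19bp1: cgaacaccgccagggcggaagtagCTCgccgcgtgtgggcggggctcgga
Rps27 and Rpl22l1, which were higher in the library labelled Lig4-/-, had runs of 9 and 8 bases. The other 4 genes past 2-fold had shorter runs, of 7 for Rps27l, 6 for Rpl12, and 5 for Rpl22 and for Rpl36a. Rpl13a and Rps10, which were lower, had runs of 14 and 13. At the starts used, Rps15 had a run of 3, as did Rps19bp1. Starts were found for 66 of the 86 members, and 25 of these (37.9%) held such a run of at least 8 bases, against 10.7% of 26959 other genes and 11.5% of 8220 other expressed protein-coding genes. Where a gene had several annotated starts, the one with the longest run was used for members and other genes alike. Among the 57 canonical genes with a start, the 24 with a run of at least 8 had a median log2 ratio of -0.02, with 11 above 0, and the 33 with a shorter run a median of 0.14, with 17 above 0. A match is a description of the annotated letters, and annotated starts can lie away from the true one. The start used for Rpl22, chr4:152324436, lay upstream of the GENCODE start of the gene at 152325742. That used for Rps15, chr10:80292431, also lay upstream of the GENCODE start, at 80292453, which was beyond the bases searched. The run of Rps15 therefore does not describe its GENCODE start. That used for Rps10, chr17:27635244, lay inside the gene, whose GENCODE 5′ end is at 27636669. Which start the cells used was not tested.

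Fau and Rack1, ribosomal proteins outside the symbol rule, lay within the range of the members. Fau, which encodes S30 fused to a ubiquitin-like protein, was at 830.4 FPKM in the CH12F3 library against 997 in the one labelled Lig4-/- (log2 ratio 0.26). Rack1, a scaffold on the small subunit head, was at 2941 and 1656 FPKM (-0.83). Neither was 2-fold apart. Among 21 expressed translation factors and partners with TOP mRNAs, Fau and Rack1 included, the median was -0.28 (-0.42 after GC adjustment). Of these, 3 were at least 2-fold higher and 2 lower, beside 21.0% and 4.09% of all expressed genes. After GC adjustment none was so much higher and 4 were lower, beside 5.37% and 5.44%. As deposited, the highest were the histone chaperone Nap1l1 (1.54) and the nucleolar chaperone Npm1 (1.23), at 0.11 and 0.08 after GC adjustment. The lowest were the initiation factors Eif4b (-1.44) and Eif3h (-1.33), at -1.60 and -1.38 after GC adjustment. On the deposited scale those genes therefore spanned a wider range than the ribosomal proteins, a difference that was not tested. After GC adjustment they ran from -1.60 (Eif4b) to 0.94 (Tpt1), and the members from -1.32 (Rps20) to 1.28 (Rps27).

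The 78 mitochondrial ribosomal protein genes, which serve a separate ribosome, were all expressed, with a median log2 ratio of -0.21 (-0.26 after GC adjustment) and a ratio of summed FPKM of 0.881. At least 2-fold higher were 4, led by Mrpl50 (4.50 and 19.1 FPKM, 1.87) and Mrpl18 (27.7 and 90.6 FPKM, 1.67), and none was 2-fold lower, the lowest being Mrpl14 (-0.82) and Mrps34 (-0.78). Both sets of ribosomal proteins thus had a ratio of sums below 1, under the 3 scalings alike, and as deposited no member 2-fold lower. After GC adjustment 8 mitochondrial and 5 cytosolic genes were at least 2-fold lower, beside 5.44% of all expressed genes. At least 2-fold higher were then 1 and 3, beside 5.37%. Of 10 chaperones and export factors of ribosomal proteins, 3 were at least 2-fold higher, among them Ltv1 (1.29), an export factor of the small subunit, and Heatr3 (1.19), an import factor for Rpl5, and the lowest were Rrp12 (-0.51) and Grwd1 (-0.45). Of 12 genes of ribosome-associated quality control, 4 were at least 2-fold higher, led by the recycling factor Abce1 (11.5 and 59.3 FPKM, 2.27) and the helicase Ascc3 (1.68 and 10.0 FPKM, 2.04), and the lowest were Tcf25 (-0.77) and Edf1 (-0.71). These counts stand beside 21.0% of all expressed genes at least 2-fold higher, and after GC adjustment none of these 7 genes was so.

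Near-identical copies held a large part of the ribosomal protein FPKM. A copy was counted where an annotated transcript matched at least 80% of a member's coding sequence at 95% identity or more. By this measure 78 members had 529 copies, of which 512 were annotated as pseudogenes, 99 had a mean of at least 1 FPKM and 27 of at least 100. Together the copies summed to 52125 FPKM in the CH12F3 library, 17.0% of the members and copies pooled, and to 42954 FPKM in the library labelled Lig4-/-, 16.4%. The 30 copies identical to the gene over the aligned coding sequence held 44919 and 37515 FPKM of this. Reads from identical stretches cannot be assigned by their sequence, and how the authors treated such reads is not stated. Sums of FPKM over genes of unequal annotated length are approximate.

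For 11 genes the copies held at least 50% of the pooled FPKM in both libraries. These were Rpl5, Rpl10, Rpl12, Rpl27, Rpl27a, Rpl31, Rpl36a, Rps12, Rps18, Rps23 and Rps28. Rpl12, which was the lowest canonical gene, had 98.2% of its pooled FPKM in copies in the CH12F3 library against 97.3% in the other, most of it in the identical copy Gm10275 at 2491 and 3729 FPKM. Rps12 had 97.8% and 97.3%, with Rps12-ps3 at 3332 and 3854 FPKM, and Rpl27 had 95.1% and 95.4%, with Rpl27-ps3 at 6973 and 5406 FPKM. The low single-gene levels of Rpl12, Rps12 and Rpl27 thus stood beside far more abundant copies. The copy with the highest FPKM was Gm10443, identical to the coding sequence of Rps28, at 9374 FPKM in the CH12F3 library against 6482 in the one labelled Lig4-/-. That exceeded Rps28 itself, at 3652 and 4244 FPKM.

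**Figure D3:**
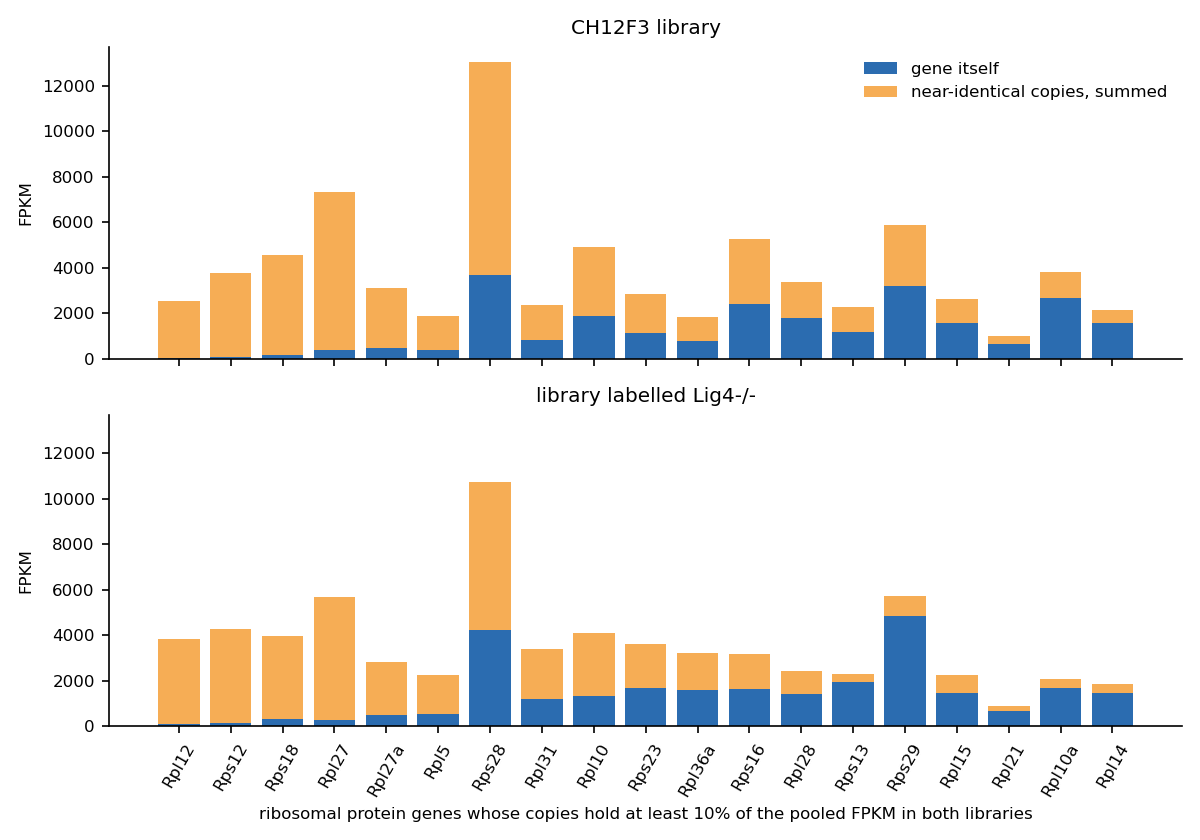
FPKM (y axis) of the 19 ribosomal protein genes whose copies held at least 10% of the pooled FPKM in both libraries (x axis), with the gene itself and its summed near-identical copies stacked, in the CH12F3 library (upper panel) and the library labelled Lig4-/- (lower panel). For Rpl12, Rps12, Rps18 and Rpl27 the bar is almost wholly made up of copies.

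Pooling each gene with its copies narrowed the canonical set. Single genes ranged from 45.1 to 18559 FPKM in the CH12F3 library, a ratio of 412, and from 104 to 9358 in the library labelled Lig4-/-, a ratio of 90.3. Pooled levels ranged from 854 to 18656 FPKM, a ratio of 21.9, and from 871 to 10734 FPKM, a ratio of 12.3. The upper quartile was 2.69 times the lower for single genes and 2.19 times for pooled levels in the CH12F3 library, and 2.27 and 1.81 times in the other. Pooled, the canonical genes thus lay closer together in both libraries.

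Rps18 stood beside copies that are nearly but not fully identical to it. Its coding sequence differs from that of its copy Gm10260 at 4 bases and from that of Gm11361 at 3, and 100 bases that hold 3 of the 4 differences of the first and 1 of the 3 of the second are shown, positions 332 to 431 of the coding sequence in GENCODE M21 (GRCm38), with bases that differ from Rps18 in capitals.
Rps18: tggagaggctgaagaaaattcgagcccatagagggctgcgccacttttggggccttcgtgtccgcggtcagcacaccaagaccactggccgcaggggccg
Gm10260: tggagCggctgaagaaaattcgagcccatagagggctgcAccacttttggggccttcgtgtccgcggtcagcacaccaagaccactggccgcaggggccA
Gm11361: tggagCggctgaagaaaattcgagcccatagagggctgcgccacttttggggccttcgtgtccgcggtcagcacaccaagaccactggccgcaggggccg
Rps18 (chromosome 17) was at 155 FPKM in the CH12F3 library against 307 in the one labelled Lig4-/-, while Gm10260 was at 3262 and 2484 FPKM and Gm11361, like it on chromosome 13, at 1113 and 1159.7 FPKM. Both copies are annotated as protein-coding genes. The gene was higher and its main copy lower in the library labelled Lig4-/-, and the pooled log2 ratio was -0.20 in place of 0.98.

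Pooling moved other directions as well. Rps28 went from 0.22 to -0.28, Rps29, a zinc-binding protein of the small subunit, from 0.59 to -0.04, and Rps13 from 0.72 to 0.02. On the deposited scale 6 members crossed 0, among them Rpl7a, Rpl21 and Rpl27a, whose log2 ratios were within 0.1 of 0 before pooling. For Rps29 the identical copy Gm14303 was at 2663 FPKM in the CH12F3 library against 866 in the one labelled Lig4-/-, while the gene stood at 3206 and 4833 FPKM. Gene and copy thus differed in opposite directions. Rpl12 went from 1.18 to 0.60 and Rpl36a from 1.01 to 0.81, so that 4 of the 6 genes past 2-fold, Rpl22, Rpl22l1, Rps27 and Rps27l, were so when pooled. Of these 4, Rps27l has no matched copy, and for the other 3 pooling moved the log2 ratio by under 0.1. The ratio of summed FPKM was 0.851 for members and copies together and 0.857 for members alone.

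**Figure D4:**
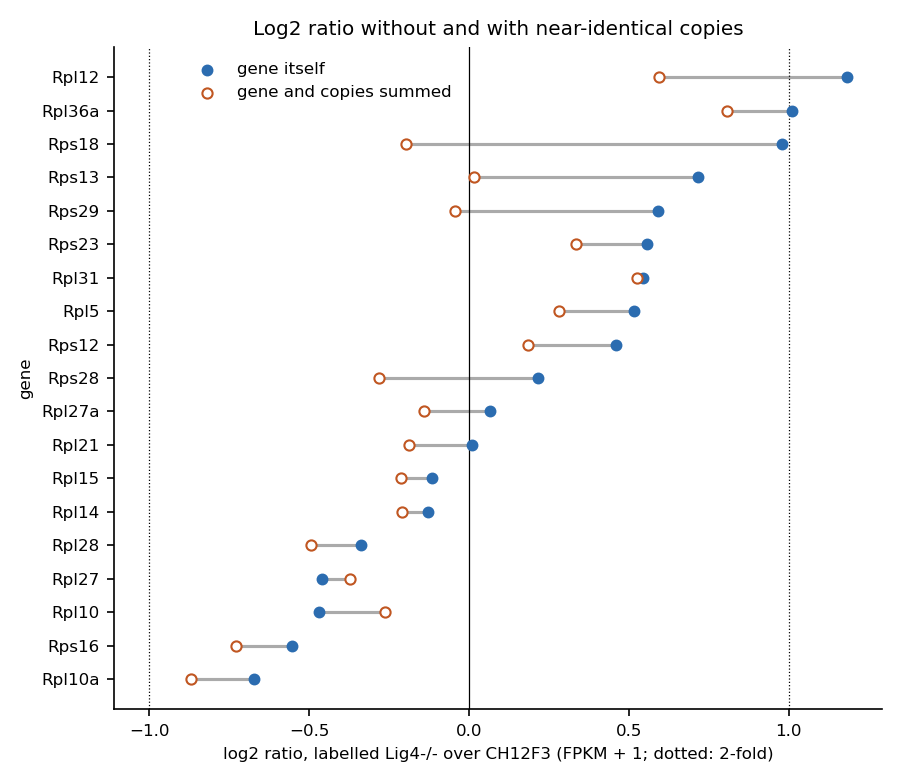
Log2 ratio on the FPKM + 1 scale (x axis) of the 19 genes whose copies held at least 10% of the pooled FPKM in both libraries (y axis), for the gene itself (filled) and for gene and copies summed (open), with dotted lines at 2-fold. Rps18, Rps28 and Rps29 move across 0, and Rpl12 and Rpl36a move inside 2-fold.

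A few copies were far higher in the CH12F3 library. Gm12918, identical in coding sequence to Rpl13, was at 421 FPKM there and listed at 0 in the library labelled Lig4-/-. Rpl39-ps was at 110 and 0.45 FPKM, Rps13-ps1 at 583 and 76.3, and Rpl37rt, a copy of Rpl37, at 274 and 56.6 FPKM. The parent genes did not share these differences, with Rpl13 at 3061 and 2818 FPKM and Rpl39 at 1216 and 1674 FPKM. These copies were chosen after their values were seen. Among the 39 expressed pseudogenes named for ribosomal proteins, 1 was at least 2-fold higher and 8 were at least 2-fold lower, beside 21.0% and 4.09% of all expressed genes, and their median log2 ratio was -0.49.

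The paralogue pairs were compared as a share of each pair's FPKM. The family of Rps27 is shown because its members include an identical coding sequence on another chromosome, with bases of Rps27l that differ from Rps27 in capitals (GENCODE M21).
Rps27: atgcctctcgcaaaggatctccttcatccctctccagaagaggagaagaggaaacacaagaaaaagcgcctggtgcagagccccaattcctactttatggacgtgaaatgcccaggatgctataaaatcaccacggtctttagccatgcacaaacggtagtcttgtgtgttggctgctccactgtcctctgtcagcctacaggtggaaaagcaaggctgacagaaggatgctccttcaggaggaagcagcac
Rps27l: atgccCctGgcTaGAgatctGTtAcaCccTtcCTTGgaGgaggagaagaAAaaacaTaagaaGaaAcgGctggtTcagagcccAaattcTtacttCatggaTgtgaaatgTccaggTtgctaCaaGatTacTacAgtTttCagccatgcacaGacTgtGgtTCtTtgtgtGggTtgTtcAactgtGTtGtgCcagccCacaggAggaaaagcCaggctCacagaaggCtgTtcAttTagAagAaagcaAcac
The coding sequence of Rps27rt, a gene without introns on chromosome 9, is identical to that of Rps27 on chromosome 3 over all 252 bases, whereas Rps27l differs at 60 bases (76.2% identity). Reads within the shared coding sequence could therefore come from either Rps27 or Rps27rt. Rps27rt was at 52.6 FPKM in the CH12F3 library against 91.9 in the one labelled Lig4-/- (log2 ratio 0.79), 1.65% and 1.39% of the sum with Rps27. Rps27l made up 11.8% of the sum with Rps27 in the CH12F3 library against 12.2% in the other. On the deposited scale the balance within this family was thus nearly the same in both libraries. Each of its 3 genes was higher in the library labelled Lig4-/-. After GC adjustment Rps27 was at 1.28, Rps27l at 0.05 and Rps27rt at 0.13.

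Rpl36a and its intronless paralogue Rpl36al differed in opposite directions. Their coding sequences differ at 39 of 318 bases, 18 of them in the first 120, shown here with differing bases in capitals (GENCODE M21).
Rpl36a: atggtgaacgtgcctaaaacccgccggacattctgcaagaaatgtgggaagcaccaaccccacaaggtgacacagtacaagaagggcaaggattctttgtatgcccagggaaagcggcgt
Rpl36al: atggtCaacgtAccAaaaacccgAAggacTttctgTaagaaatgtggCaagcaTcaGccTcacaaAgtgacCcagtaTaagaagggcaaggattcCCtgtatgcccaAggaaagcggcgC
Rpl36al was at 1833 FPKM in the CH12F3 library against 1432 in the one labelled Lig4-/- (log2 ratio -0.36), while Rpl36a was higher in the latter. The share of Rpl36al in the pair was therefore 70.1% in the CH12F3 library against 47.7% in the other. Rpl36a also has an identical copy, Rpl36a-ps2, at 1058 and 1647 FPKM, which is not part of that share. Rpl22l1, whose coding sequence is 67.5% identical to that of Rpl22, made up 9.07% of their sum in the CH12F3 library against 13.3% in the one labelled Lig4-/-. That rise holds on the deposited scale. After GC adjustment the log2 ratio of Rpl22l1 (0.26) was below that of Rpl22 (0.73).

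The remaining paralogues were minor partners. Rpl7l1, which takes part in the assembly of the large subunit, was at 111 and 88.7 FPKM (log2 ratio -0.32), 5.64% and 5.10% of its sum with Rpl7. Rpl39l, known from the testis, was at 5.04 and 4.74 FPKM, 0.413% and 0.282% of its sum with Rpl39. Rpl3l, known from striated muscle, and Rpl10l, known from the testis, were not expressed by the threshold used. Rps19bp1 was at 68.1 and 67.8 FPKM, almost equal between the libraries.

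The log2 ratio of ribosomal protein genes followed the base composition of their coding sequence. Over the 77 canonical genes, Spearman's rho of log2 ratio with coding-sequence GC content was -0.51, and -0.62 when copies were pooled. It was -0.59 over 10294 other expressed protein-coding genes. Over the canonical genes, rho was -0.37 with transcript GC content, which the adjustment below uses. With CH12F3 FPKM, itself part of the log2 ratio, it was -0.66. Genes share the 2 libraries and are not replicates, so these values are descriptions. Split into 3 groups by GC content, the 26 genes lowest in G and C (median 48.8%) had a median log2 ratio of 0.22 with 20 above 0. The middle 26 (52.8%) had a median of -0.06 with 11 above 0, and the 25 highest (56.8%) a median of -0.51 with 4 above 0. With equal FPKM totals the middle group moved to the other side of 0, at 0.02, and the outer groups stayed on theirs under the 3 scalings. The members with the most G and C were thus the ones lower in the library labelled Lig4-/-, as among other genes.

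**Figure D5:**
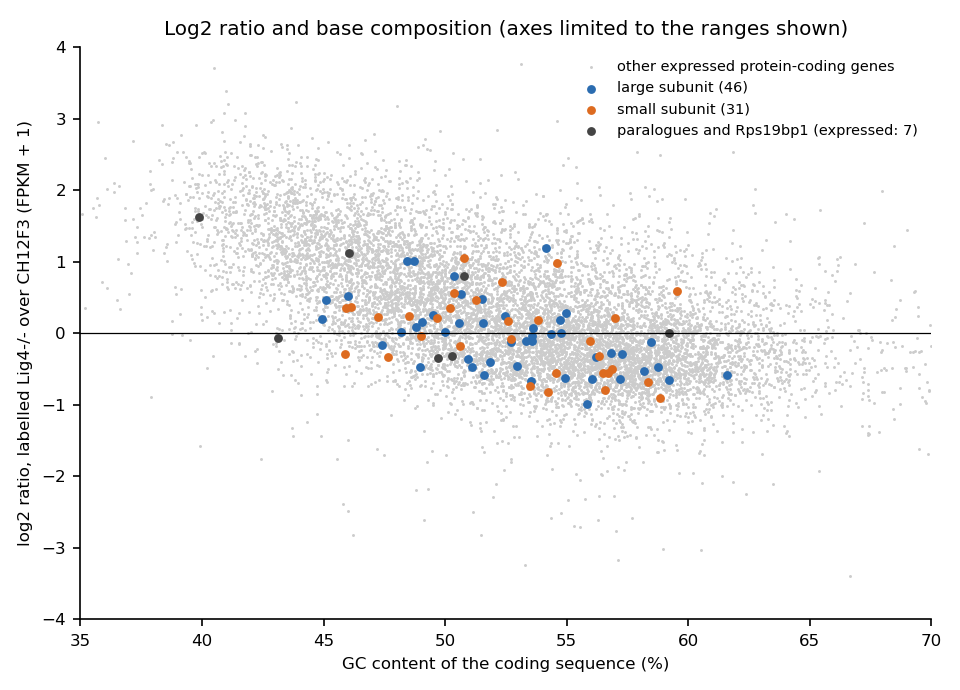
Log2 ratio on the FPKM + 1 scale (y axis) against GC content of the coding sequence (x axis, percent) for the 84 expressed members, coloured by subunit, and for other expressed protein-coding genes in grey, with both axes limited to the range drawn. Members and other genes decline together, and Rpl22l1 and Rps27l lie at the low-GC end.

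After a smooth curve of log2 ratio on transcript GC content, fitted over all expressed genes, was subtracted, the members had a median of -0.18. Of the members, 32 lay above 0 and 52 below. The adjusted median was -0.02 for all expressed genes. It was -0.28 for the 1160 other genes with a mean of at least 100 FPKM, lower than that of the members. At least 2-fold higher were then 3 members, Rpl12 (1.16), Rps18 (1.17) and Rps27 (1.28), beside 5.37% of all expressed genes. Rpl12 and Rps18 stand here without their copies. In the library labelled Lig4-/- these held 97.3% and 92.3% of the pooled FPKM, and more in the other library. At least 2-fold lower were 5, Rps20 (-1.32), Rpl15 (-1.16), Rpl39l (-1.14), Rps3 (-1.11) and Rps15a (-1.04), beside 5.44%. Rpl22l1, with a coding-sequence GC content of 39.9%, was at 0.26 after the adjustment, Rps27l (46.0%) at 0.05, Rpl36a at 0.42 and Rpl22 at 0.73. Of the 6 genes past 2-fold, Rpl12 and Rps27 therefore were so after the adjustment as well. Whether base composition accounts for the differences of the other 4 was not tested. GC content here is that of the longest annotated protein-coding transcript, which for Rps20 (41.3%) and Rpl15 (43.2%) is poorer in G and C than the coding sequence (49.0% and 53.6%). With the GC content of the coding sequence in its place, 2 members were higher, Rpl12 (1.21) and Rps18 (1.04), and 3 lower, Rpl39l, Rps15a and Rps4x.

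Many ribosomal protein genes host small nucleolar RNAs in their introns. On the same strand, 58 such genes lay inside 30 members. Of these, 57 were listed at 0 FPKM in both libraries, and the other, Gm26448 inside Rpsa, was at 5.42 FPKM in the CH12F3 library but listed at 0 in that labelled Lig4-/-. An exact 0 can be a failed estimate, so these values say nothing of the levels of the hosted RNAs.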

How the data were processed

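RNA of 1 CH12F3 and 1 Lig4-/- CH12F3 library was compared. The authors deposited FPKM values per gene, 53873 features with 2 value columns, each matched to its sample by name. The build is GRCh38, per the submitters' processing notes, which also list CASAVA and TopHat with no version. That build is human, whereas 51912 features carry mouse Ensembl identifiers. Not given in the sources used here are the build behind the values, the FPKM program, the strand setting and how multiply mapped reads were handled, so reads of overlapping or near-identical genes could have gone to either gene.

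Symbols, positions, transcripts and GC contents came from GENCODE M21 (GRCm38), which gave a symbol to 51633 identifiers. Of identifiers with a common symbol only the most abundant was used (72 dropped). Genes with a mean of at least 1 FPKM were called expressed, and log2 ratios used a pseudocount of 1 FPKM, which understates differences of low genes. Copies were found with blastn 2.17.0 (E value at most 1e-10) from each member's coding sequence. GC adjustment subtracted a lowess curve (fraction 0.3, statsmodels 0.14.6) fitted over all expressed genes with a GC content, 11348 in all. The fold counts and the GC adjustment were tested on simulated data, and the search for copies was not. The simulation had a straight GC trend and far less scatter than these data. It therefore checks the calculation and does not show how reliable the counts are here. The start sequences are RefSeq's, and scripts used Python 3.11.15.

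With 1 library per group no test was made. Depth is unknown, so no counting interval is given. An exact 0 can be a failed estimate. The members and lists were chosen with earlier results of these data known. By rule the text names the 5 highest members of each library, the 8 highest and 8 lowest log2 ratios, all members past 2-fold, all paralogues, Rplp0 to Rplp2, Rpl5 and Rpl11, those nearest the median, and the 2 highest and 2 lowest of each other list. Other genes, among them those with abundant copies, are examples chosen after their values were seen. A few genes within this naming rule are not reported here. In all, 18 alternatives were tried, 5 of them added after seeing the data.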

Additional observations from a re-analysis of the deposited data

How the results depend on the processing

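The limits are those of 1 library per group. No paired analysis was possible because the groups share only 1 replicate number and no test was made, and leaving out a replicate would leave no comparison. What follows gives the values that moved by at least 0.1 on the log2 scale, or by more than 1.5 times for a count. The GC curve on the longest transcript of any type, the curve on coding-sequence GC, pooling of matched copies, the omission of members with abundant copies and the minimum of 100 FPKM were added after seeing the data.

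The ratio of summed FPKM lay below 1 under all 18 alternatives. Setting the overall median to 0 gave a median log2 ratio of -0.21, 2 members at least 2-fold higher, 2 lower and a ratio of sums of 0.761. The transcript GC curve gave a median of -0.18, 3 higher and 5 lower. The length curve gave 3 higher and 1 lower, and both curves together 3 higher, 5 lower and a ratio of 0.932. GC of the longest transcript of any type gave a median of -0.19, 2 higher and 6 lower, and coding-sequence GC a median of -0.26, 2 higher and 3 lower. With a minimum of 100 FPKM, 31 of 79 members lay below the median of genes above that minimum, a construction that compares them with fewer and more abundant genes. For the curves the cause was not tested.

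Of 317 values of single named genes under alternatives, 222 moved by less than 0.1 and 95 by more, and 5 changed sign. Rpl22l1 was at -0.0085 under the curve on coding-sequence GC and Rps18 at -0.20 with copies pooled, while Rpl41, from -0.11, was at 0.16 under the transcript GC curve, 0.24 with the length curve added and 0.11 with GC of the longest transcript of any type. Rpl12 was at least 2-fold higher under 15 of 16 alternatives that gave it a value, Rps27 under 15 of 18, Rpl22l1 under 13 of 17, Rps27l under 12 of 17, Rpl22 under 12 of 18 and Rpl36a under 9 of 17. Rpl12 fell short when pooled with its matched copies (0.60), which held 98.2% and 97.3% of its pooled FPKM. The omission of members with abundant copies and the minimum of 100 FPKM gave it no value. Its count therefore says little of how it depends on its copies.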
